A study of Homo sapiens with 9 samples.

Results

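The matrix metalloproteinase (MMP) genes described here are MMP1, MMP2, MMP3, MMP9, MMP10, MMP11, MMP14, MMP15, MMP16 and MMP17. They are 10 of the 58735 genes in the deposited expression table. They were taken by name from a list that was set with earlier results of these data known. The table holds 13 other human MMP genes, which are described near the end of the results. The table covers 9 poly(A)-selected RNA sequencing libraries of GBM43, a glioblastoma cell line, grown inside 3D hydrogel devices built from hyaluronic acid. The MK801 libraries (n = 3) came from devices given 50 µM MK801, a pore blocker of the NMDA-type glutamate receptor, with their core and invading cells combined. The invasive libraries (n = 3) held the cells that had moved out into the gel of control devices, cut away with a scalpel. The core libraries (n = 3) held the cells left at the centre of control devices. The labels describe the control devices in one place as given medium and in another as given DMSO vehicle. In all 3 groups the gel was digested with hyaluronidase before RNA was taken. Every group is 1 cell line. Because the MK801 cells were not split, an MK801 library is a mixture of both positions, and the mixing proportion is not given in the sources used here.

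MMPs are zinc-dependent endopeptidases that cut proteins of the extracellular matrix and of the cell surface. Most are secreted as inactive proenzymes and are switched on by other proteases, and tissue inhibitors of metalloproteinases (TIMPs) block the active enzymes. Collagenases cut fibrillar collagen, stromelysins cut a wide range of matrix proteins and activate other proenzymes, and gelatinases cut denatured collagen and basement membrane collagen. Membrane-type MMPs stay anchored to the cell that makes them. In glioblastoma the gelatinases and MMP14 have long been studied in connection with invasion. Hyaluronic acid, the polymer of these gels, is a polysaccharide and is not a substrate of MMPs. The libraries measure transcripts, so they carry no information on secretion, activation or enzyme activity.

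Levels are FPKM as deposited, that is, fragment counts divided by transcript length and by a number for each library. That divisor was 0.769 to 1.23 times the gene fragments of the library, and the median-of-ratios factor of the FPKM was the same in all 9 libraries. How the divisor was set is not given in the sources used here. Gene fragments per library numbered 15.6 to 54.4 M, and MK801 replicate 3 was the deepest. With every library thinned to 15.6 M fragments, 15051 to 21260 genes were detected in MK801 libraries, 15858 to 18668 in invasive libraries and 19797 to 20810 in core libraries. Mean GC content here is that of each gene's longest annotated transcript, weighted by the gene's fragments. It was not measured on reads, so it also depends on which genes are expressed. It came to 53.6%, 52.4% and 49.7% in MK801 replicates 1, 2 and 3. It was 51.9 to 53.7% in invasive libraries and 49.0 to 50.3% in core libraries, so it differed between the control fractions without overlap. Of 8 markers of glioblastoma and glia, NES, GFAP, OLIG2 and S100B stayed under 1 FPKM in every library and OLIG2 was listed at 0, whereas VIM was at 897 to 2101 FPKM and EGFR at 3.19 to 6.43 FPKM. The summed level of 8 fibroblast and pericyte markers was 83.1 to 197 FPKM in MK801 libraries, 351 to 618 FPKM in invasive libraries and 70.5 to 145 FPKM in core libraries. COL1A1 and COL1A2 made up most of this sum, at means of 63.9 and 59.7 FPKM in MK801, 247 and 163 FPKM in invasive and 37.4 and 47.2 FPKM in core libraries. In invasive libraries PDGFRB averaged 48.1 FPKM, and COL3A1, LUM and ACTA2 averaged 2.72, 1.39 and 2.28 FPKM. Of these markers, DCN and RGS5 were under 1 FPKM in every library. The summed level of 8 macrophage and microglia markers was 1.75 to 4.83 FPKM in MK801 libraries, 4.14 to 5.84 FPKM in invasive libraries and 1.75 to 2.78 FPKM in core libraries. In every library 7 of these 8 markers were under 1 FPKM, with C1QA, C1QB and TYROBP at 0, and CSF1R made up most of the sum. The part of these differences in the results below was not tested, apart from the GC content, which was handled as given below.

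The MMP transcripts spanned about 3 orders of magnitude, and 3 of the 10 genes carried nearly all of them. The other 7 made up 3.39 to 6.88% of the summed FPKM of the 10 genes in a library. MMP14 was the highest in each group and MMP2 came next, followed by MMP1. Their means over the 9 libraries were 474, 282 and 67.3 FPKM. MMP17 and MMP11 came after them at 16.5 and 15.2 FPKM and lay within each other's spread in all 3 groups. MMP3, MMP10 and MMP9 averaged 6.46, 2.90 and 2.88 FPKM, and MMP16 and MMP15 averaged 0.785 and 0.469 FPKM. The order differed between the groups only below MMP11, where MMP9 was above MMP3 and MMP10 in the invasive mean but below both in the MK801 and core means.

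**Figure D1:**
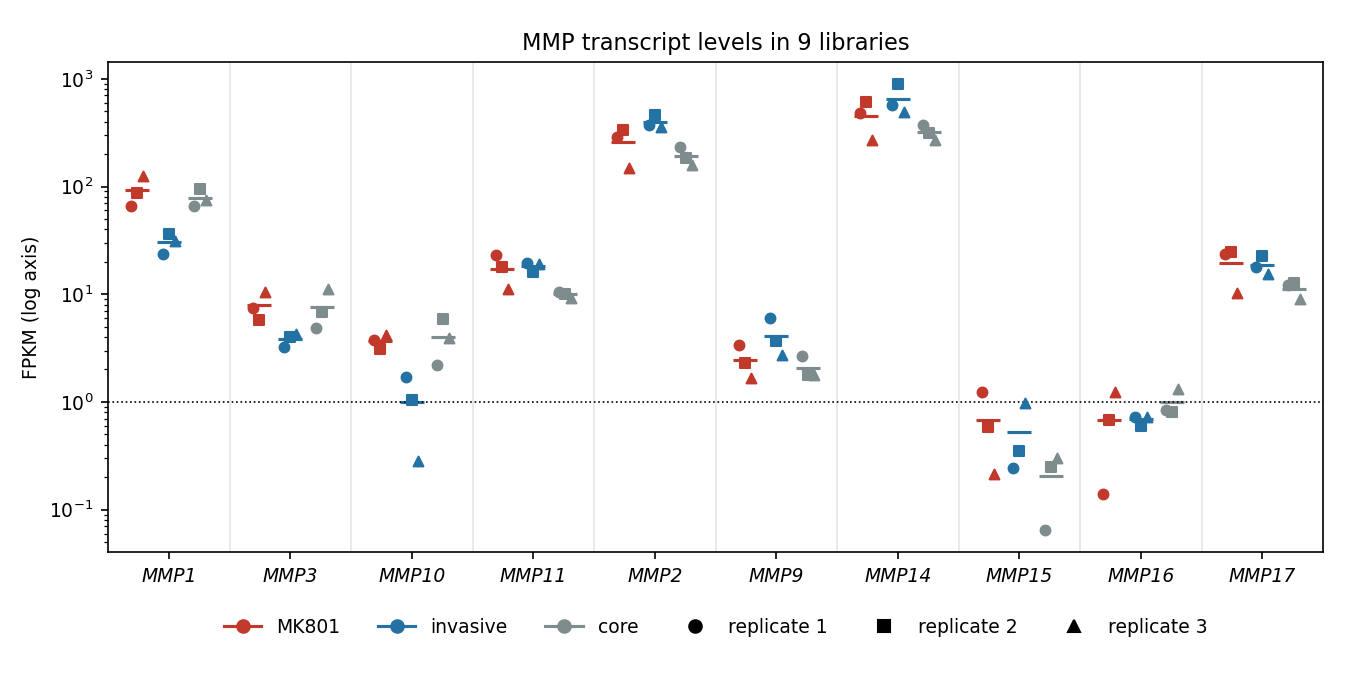
FPKM of the 10 MMP genes (log axis) in 9 libraries, by group from left to right MK801, invasive and core, with a symbol per replicate, a short line at each group mean and a dotted line at 1 FPKM. MMP1, MMP3 and MMP10 sit lowest in the invasive libraries, MMP2 and MMP14 sit highest there, and MMP15 and MMP16 lie mostly under 1 FPKM.

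Of the 10 genes, 8 reached at least 1 FPKM in at least 3 libraries and entered the test, and MMP15 and MMP16 did not. The test was limma on log2(FPKM + 1) over all 11845 genes that met this filter, with all 9 libraries in 1 fit and Benjamini-Hochberg adjustment. It called 0 of 11845 genes (0%) at an adjusted p under 0.05 in each of the 3 comparisons between groups, and so 0 of the 8 MMP genes. At an unadjusted p under 0.05 the fit had 4461 genes for invasive against core, among them 7 of the 8 MMP genes. It had 2509 genes and 1 MMP gene for MK801 against core, and 978 genes and 3 MMP genes for MK801 against invasive. Limma-voom on fragment counts recovered from the FPKM also called 0 genes in each comparison. The comparisons with core share the core libraries, and those with invasive share the invasive libraries, so they are not independent of each other. Differences are given as log2(FPKM + 1) of the first group minus that of the second, so for low genes they fall short of the fold in FPKM itself.

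Comparing the invasive fraction with the core of the same kind of device asks which MMP transcripts go with position in the gel. The 8 tested genes fell into 2 sets. The neighbouring chromosome 11 genes MMP1, MMP3 and MMP10 were lower in invasive libraries, and MMP2, MMP9, MMP11, MMP14 and MMP17 were higher, of which MMP9 and MMP17 turned to -0.03 and -0.05 (log2) with the libraries' GC trend removed. In all 8 genes the 3 invasive libraries lay entirely on one side of the 3 core libraries. Such separation was the rule in these libraries, since it was found for 64.8% of the 11845 tested genes, 32% with the invasive libraries higher and 32.8% with them lower.

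When limma was fitted to the 6 control libraries alone, without the MK801 libraries and their spread, all 8 tested MMP genes passed an adjusted p of 0.05. In that fit 52.2% of all tested genes passed, 26.3% higher and 25.9% lower in invasive libraries. The MMP genes' count of 5 higher and 3 lower therefore has to be read against a contrast in which about every other gene was called. The column names of core and invasive libraries with the same number share a stem, which may mark a shared device, though the labels do not state it. With the replicate number as a block in the fit of 9 libraries, 7 of the 8 MMP genes were called, all but MMP17, against 21.3% of all genes, 11.7% higher and 9.64% lower. Without the block, that fit called none.

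MMP1 encodes the interstitial collagenase, which cuts the triple helix of collagens I, II and III. It lies at chr11:102789920-102798160 on the minus strand (GRCh38). MMP1 was at 66.4, 86.7 and 124 FPKM in MK801 libraries, 23.5, 36.3 and 31.4 FPKM in invasive libraries and 66.3, 95.2 and 75.3 FPKM in core libraries. The invasive libraries were lowest without overlap, and the MK801 and core libraries overlapped. The means were 92.4 ± 29.3, 30.4 ± 6.43 and 78.9 ± 14.7 FPKM (SD, n = 3 each) in MK801, invasive and core libraries. The level in invasive libraries was 0.385 of that in core libraries. In limma this was a log2 difference of -1.35 (SE 0.29, adjusted p = 0.0794), and with the control libraries alone the adjusted p was 0.00341. These values rested on 776 to 1286 fragments per invasive library and 3219 to 3637 per core library, so counting error is small beside the spread between replicates.

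MMP3 and MMP10 are stromelysins, which cut proteoglycans, laminin and fibronectin and activate the proenzymes of collagenases. MMP3 (chr11:102835801-102843803, minus strand) was at 7.38, 5.79 and 10.6 FPKM in MK801 libraries, 3.27, 4.01 and 4.28 FPKM in invasive libraries and 4.83, 6.91 and 11.1 FPKM in core libraries. The highest invasive library was just under the lowest core library. The log2 difference of invasive against core was -0.77 (SE 0.30), with an adjusted p of 0.113 in limma over 9 libraries and 0.0287 over the control libraries alone. MMP10 (chr11:102770503-102780628, minus strand) was at 3.74, 3.10 and 4.19 FPKM in MK801 libraries, 1.70, 1.04 and 0.285 FPKM in invasive libraries and 2.21, 5.93 and 3.89 FPKM in core libraries. Invasive libraries again held the 3 lowest values. Their MMP10 rested on 50, 33 and 10 fragments, and the exact Poisson interval of the last was 0.137 to 0.524 FPKM, which covers counting error only. The log2 difference of invasive against core was -1.31 (SE 0.33), with an adjusted p of 0.0958 in limma over 9 libraries and 0.0115 over the control libraries alone.

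MMP11, stromelysin-3, differs from the other stromelysins in being activated inside the cell by furin-like proteases. It lies on chromosome 22 (chr22:23768226-23784316). Its levels were 22.9, 17.7 and 11.3 FPKM in MK801 libraries, 19.5, 16.1 and 19.2 FPKM in invasive libraries and 10.5, 10.1 and 9.27 FPKM in core libraries. MMP11 thus went with the higher set and not with the chromosome 11 stromelysins. The log2 difference of invasive against core was 0.81 (SE 0.25), with an adjusted p of 0.106 in limma over 9 libraries and 0.00454 over the control libraries alone.

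MMP2, gelatinase A, is secreted as a proenzyme that MMP14 activates at the cell surface with TIMP2 as a bridge. It lies at chr16:55389700-55506691. MMP2 was at 291, 338 and 148 FPKM in MK801 libraries, 376, 457 and 357 FPKM in invasive libraries and 231, 182 and 159 FPKM in core libraries. Invasive libraries held the 3 highest values, and MK801 replicate 3 lay below every core library. The mean in invasive libraries was 2.08 times that in core libraries, at 396 ± 53.5 and 191 ± 37.0 FPKM (SD, n = 3 each). In limma over 9 libraries the log2 difference was 1.06 (SE 0.34, adjusted p = 0.106), and over the control libraries alone the adjusted p was 0.00596.

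MMP9, gelatinase B, was a minor transcript beside MMP2 in these cells. MMP9 (chr20:46008908-46016561) was at 3.36, 2.30 and 1.67 FPKM in MK801 libraries, 5.98, 3.66 and 2.72 FPKM in invasive libraries and 2.69, 1.77 and 1.77 FPKM in core libraries. The lowest invasive library was barely above the highest core library. The log2 difference of invasive against core was 0.70 (SE 0.28), with an adjusted p of 0.117 in limma over 9 libraries and 0.0359 over the control libraries alone.

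MMP14 is a transmembrane collagenase and the main surface activator of MMP2. MMP14 (chr14:22836557-22849027) was at 486, 604 and 271 FPKM in MK801 libraries, 571, 888 and 493 FPKM in invasive libraries and 369, 316 and 270 FPKM in core libraries. MK801 replicate 3 stood level with the lowest core library, and the other MK801 libraries lay within or next to the invasive range. The mean in invasive libraries was 2.04 times that in core libraries. In limma over 9 libraries the log2 difference of invasive against core was 0.99 (SE 0.36, adjusted p = 0.109), and over the control libraries alone the adjusted p was 0.0149.

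MMP17 is held at the membrane by a glycosylphosphatidylinositol anchor. MMP17 (chr12:131828393-131851783) was at 23.5, 24.8 and 10.3 FPKM in MK801 libraries, 18.0, 22.7 and 15.4 FPKM in invasive libraries and 12.1, 12.7 and 8.96 FPKM in core libraries. MK801 replicates 1 and 2 lay above every invasive library, and MK801 replicate 3 lay among the core values. The log2 difference of invasive against core was 0.68 (SE 0.32), with an adjusted p of 0.142 in limma over 9 libraries and 0.0179 over the control libraries alone.

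MMP15 and MMP16 are the other transmembrane members, and both activate MMP2 in other cells. MMP15 was at 1.23, 0.586 and 0.212 FPKM in MK801 libraries, 0.243, 0.352 and 0.975 FPKM in invasive libraries and 0.0651, 0.250 and 0.301 FPKM in core libraries. MMP16 was at 0.140, 0.674 and 1.22 FPKM in MK801 libraries, 0.730, 0.601 and 0.732 FPKM in invasive libraries and 0.842, 0.803 and 1.32 FPKM in core libraries. The groups overlapped for MMP15, while all 3 core libraries lay above the invasive ones for MMP16. In limma without the level filter, MMP15 and MMP16 differed between invasive and core by 0.31 and -0.23 (log2; adjusted p = 0.495 and 0.630).

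The MMP transcripts of MK801 devices were then set against each control fraction, which asks whether the treated cells resemble the fraction that had invaded or the one that had not. MMP1, MMP3 and MMP10 were higher in MK801 than in invasive libraries without overlap, and MMP2 was lower without overlap. Over all tested genes such separation was found for 10.8%, 5.22% higher and 5.63% lower in MK801 libraries, so 4 of the 8 MMP genes showed it. In the comparison with core, MMP11 alone among the 8 did not overlap, being higher in MK801 libraries, where 18.7% of all tested genes were separated, 9.89% higher.

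MMP1 averaged 3.04 times as much in MK801 as in invasive libraries. In limma the log2 difference was 1.55 (SE 0.29, 95% interval 0.91 to 2.19, adjusted p = 0.114), and its unadjusted p ranked 28th of the 11845 genes. MMP10 averaged 3.64 times as much in MK801 as in invasive libraries, a log2 difference of 1.28 (SE 0.33, limma adjusted p = 0.291). MMP3 had a log2 difference of 0.85 (SE 0.30, limma adjusted p = 0.45). Against core, the same 3 genes differed by 0.19, 0.08 and -0.04 (MMP1, MMP3 and MMP10; limma adjusted p = 0.635, 0.859 and 0.944). The interval of the MMP1 difference from core ran from -0.45 to 0.83, so a difference of either sign is not excluded.

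MMP2 and MMP14 had lower means in MK801 than in invasive libraries, with log2 differences of -0.69 and -0.55 (limma adjusted p = 0.676 and 0.821). Their differences from core were 0.37 and 0.44 (limma adjusted p = 0.437 and 0.391). The group mean hides a split among the MK801 libraries, since replicate 3 had 148 FPKM of MMP2 and replicates 1 and 2 had 291 and 338. MMP9 differed from invasive by -0.55 and from core by 0.15 (limma adjusted p = 0.701 and 0.721). MMP11 and MMP17 were near their invasive levels, with differences of -0.12 and -0.01 (limma adjusted p = 0.982 and 0.997). Their differences from core were 0.69 and 0.67 (limma adjusted p = 0.235 and 0.238). MMP15 and MMP16, fitted without the level filter, differed from core by 0.44 and -0.29 (limma adjusted p = 0.514 and 0.579).

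Since the MK801 libraries hold both positions, they were also set against the mean of the 2 control fractions with equal weight. Limma called 0 of 11845 genes (0%) there, with 838 genes and 1 of the 8 MMP genes at an unadjusted p under 0.05, and voom called 0 genes with 702. The MMP gene was MMP1, higher in MK801 libraries by 0.87 (SE 0.25, adjusted p = 0.647). MMP2 and MMP14 differed from that mean by -0.16 and -0.05 (limma adjusted p = 0.857 and 0.960). The true proportion of core and invading cells in an MK801 library was not measured, so equal weight is a convention.

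One MK801 library decided part of this. Without MK801 replicate 3, limma called 50.2% of all genes for MK801 against core, 25.2% higher. MMP11, MMP2 and MMP17 were then higher than in core by 0.95, 0.73 and 1.05 (adjusted p = 0.00852, 0.0364 and 0.00887). These 3 calls were lost when the GC trend was removed as well, a setting chosen after seeing the data. Limma then called 330 of the 11845 genes and 0 MMP genes for MK801 against core. Without MK801 replicate 1, MMP1 was higher in MK801 than in invasive libraries by 1.76 (limma adjusted p = 0.046), with 0.355% of all genes called. The count of MMP genes called between invasive and core also moved with these libraries. It was 8 without MK801 replicate 3 (41.3% of all genes) and 6 without MK801 replicate 1 (39.5% of all genes).

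**Figure D2:**
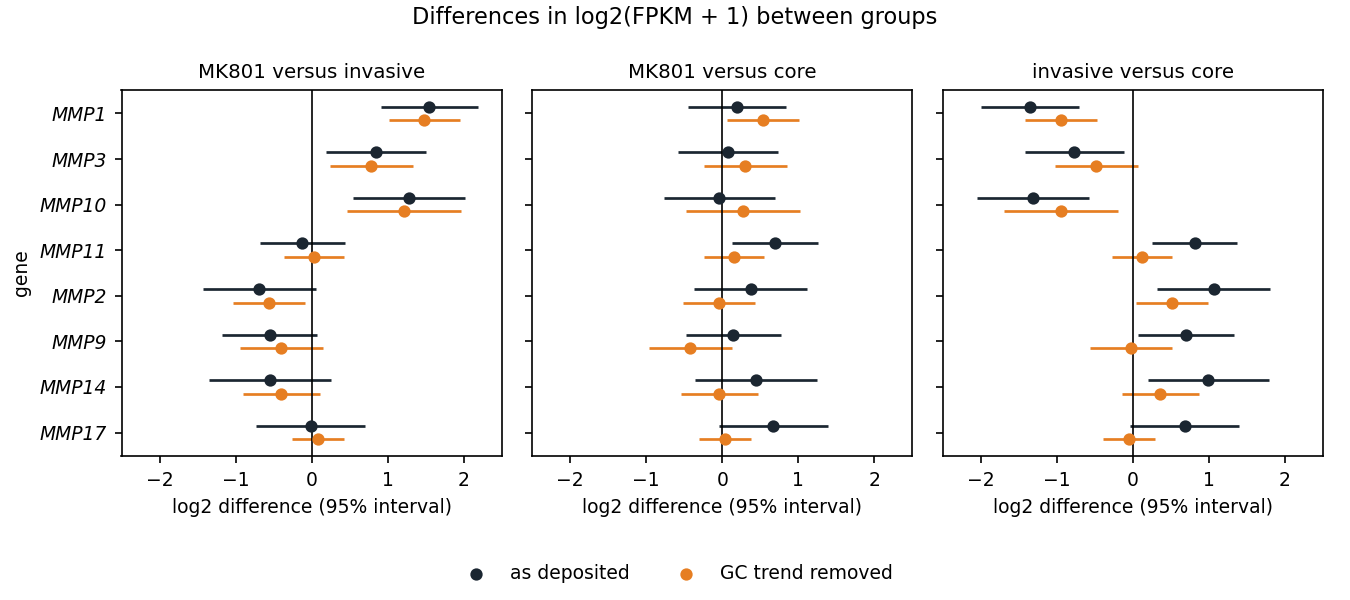
Differences in log2(FPKM + 1) between groups for the 8 tested MMP genes, as deposited and after removal of each library's GC trend, with points for the limma estimate and lines for its 95% interval. MMP1, MMP3 and MMP10 lie right of 0 for MK801 against invasive and left of 0 for invasive against core in both versions, while MMP9, MMP11 and MMP17 move to near 0 for invasive against core once the GC trend is removed.

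The GC content of the libraries moved with the groups, and the MMP genes differ in GC content themselves. MMP1, MMP10 and MMP3 transcripts had 43.4%, 43.7% and 44.8% GC. MMP2, MMP14, MMP11, MMP9 and MMP17 had 56.5%, 58.9%, 61.0%, 62.4% and 68.7%. The genes lower in invasive libraries were thus the AT-rich ones and those higher were the GC-rich ones, in the same direction as the libraries' mean GC content. With a smooth trend on gene GC content removed from each library, the difference of invasive against core was -0.95 for MMP1 (SE 0.21, limma adjusted p = 0.0827) and -0.94 for MMP10 (SE 0.34, limma adjusted p = 0.165). It was -0.48 for MMP3, 0.52 for MMP2 and 0.36 for MMP14 (limma adjusted p = 0.264, 0.197 and 0.35). For MMP11, MMP9 and MMP17 it was 0.12, -0.03 and -0.05, so that the sign of MMP9 and MMP17 turned. The correction can also take away differences in expression that go with gene GC content. Over the control libraries alone with this correction, 19.2% of genes were called, 10.5% higher and 8.73% lower in invasive libraries. Among them were MMP1, lower in invasive libraries by a log2 difference of -0.95 (adjusted p = 0.0219), and MMP2, higher by 0.52 (adjusted p = 0.0477).

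MMP1 kept its distance between MK801 and invasive libraries under the correction. The log2 difference was 1.48 (SE 0.21, limma adjusted p = 0.0281), and 0.616% of all genes were called. With the correction, leaving out MK801 replicate 1 gave 1.54 (adjusted p = 0.0154), and leaving out MK801 replicate 3 gave 1.42 (adjusted p = 0.0589). Over the 6 MK801 and invasive libraries alone the corrected adjusted p was 0.0675, and 0.0253% of genes were called. The corrected differences were 1.21 for MMP10, 0.78 for MMP3 and -0.56 for MMP2 (limma adjusted p = 0.128, 0.167 and 0.24).

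**Figure D3:**
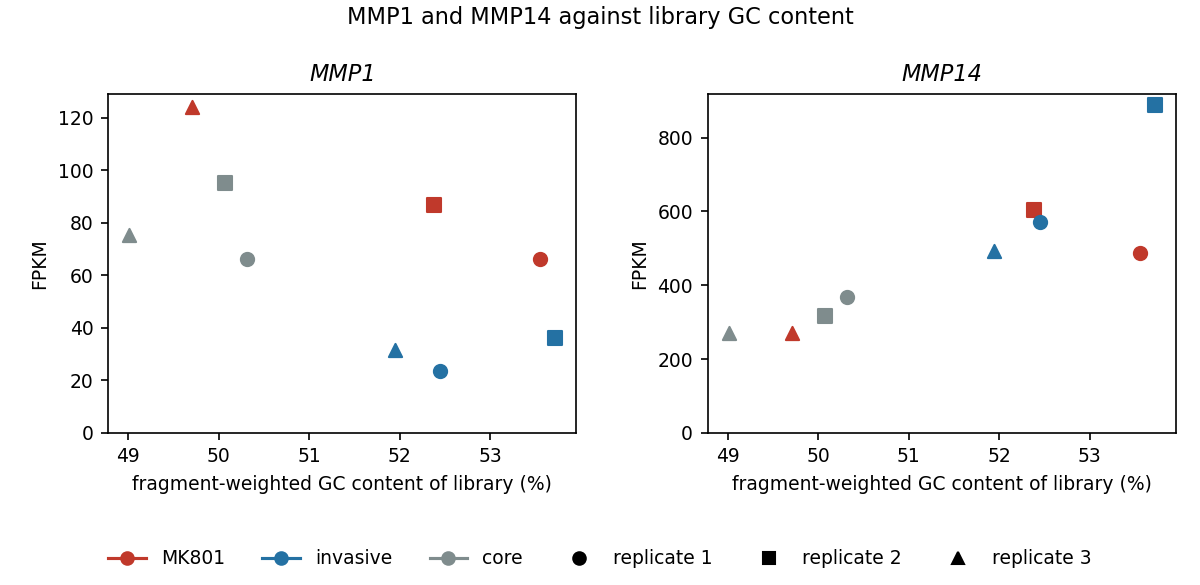
FPKM of MMP1 (left) and MMP14 (right) against the mean GC content of annotated transcripts in percent, weighted by the gene fragments of each library. Points are coloured by group with a symbol per replicate. MMP14 climbs with library GC content across groups, with MK801 replicate 3 at 49.7% GC beside the core libraries, whereas the MK801 libraries at 52.4% and 53.6% GC hold 86.7 and 66.4 FPKM of MMP1, above the 23.5 to 36.3 FPKM of the invasive libraries.

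Ratios between MMP genes within a library do not depend on its total. They can still carry a library's GC trend where the 2 genes differ in GC content. MMP1 (43.4%) differs so from MMP14 (58.9%) and MMP2 (56.5%), which are closer to each other. Neither these ratios nor the shares given next were corrected for GC content. The ratio of MMP14 to MMP1 was 7.33, 6.96 and 2.18 in MK801 libraries, 24.3, 24.5 and 15.7 in invasive libraries and 5.56, 3.32 and 3.59 in core libraries. Invasive libraries stood apart from both other groups, and the MK801 and core libraries overlapped. The ratio of MMP2 to MMP1 behaved alike, at 1.19 to 4.39 in MK801 libraries, 11.3 to 16.0 in invasive libraries and 1.91 to 3.49 in core libraries. By contrast the ratio of MMP14 to its substrate proenzyme MMP2 overlapped between all groups, at 1.67 to 1.83, 1.38 to 1.94 and 1.60 to 1.74 in MK801, invasive and core libraries.

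The summed FPKM of the 10 genes was 582 to 1083 in MK801 libraries, 925 to 1430 in invasive libraries and 541 to 700.0 in core libraries. MMP14 made up 46.5 to 55.7% of it in MK801 libraries, 53.3 to 62.1% in invasive libraries and 49.9 to 52.7% in core libraries. MMP1, MMP3 and MMP10 together made up 8.55 to 23.9%, 2.80 to 3.89% and 10.5 to 17.1%. The part of these 3 genes was thus smallest in every invasive library. In these bulk libraries, fewer cells that make a transcript and less of it per cell cannot be told apart.

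**Figure D4:**
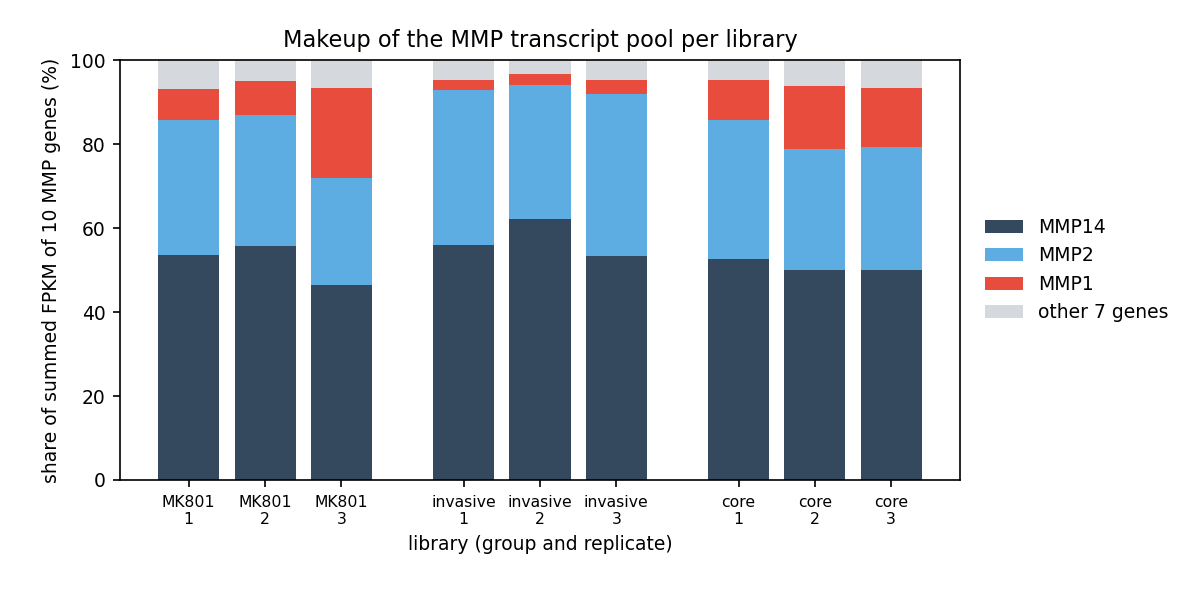
Share of the summed FPKM of the 10 MMP genes, in percent, taken by MMP14, MMP2, MMP1 and the other 7 genes in each of the 9 libraries, ordered MK801, invasive and core. MMP1 takes 2.31 to 3.40% in the invasive libraries and 7.32 to 21.3% in the MK801 libraries, against 9.48 to 15.1% in the core libraries.

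Among the members, the closest pair over the 9 libraries was MMP2 and MMP14, with a Pearson r of 0.97 on log2(FPKM + 1). With the group means removed r was 0.94, so the 2 genes also varied together within groups. MMP17 followed both, at 0.95 with MMP2 and 0.93 with MMP14 after the group means were removed. In the chromosome 11 genes the likeness lay mostly between groups. MMP1 had r of 0.82 with both MMP3 and MMP10, which dropped to 0.47 and 0.18 with the group means removed. MMP1 and MMP9 ran opposite, at -0.85 over all libraries and -0.83 within groups. All of these are descriptions of 9 libraries that differed in depth and GC content, within the groups as well. The part of depth and GC content in these values of r was not tested.

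From 5887 other protein-coding genes averaging 5 FPKM or more, those closest to MMP1 over the 9 libraries were CSNK2A1, MORF4L1 and NBR1 (r = 0.983, 0.962 and 0.960). MMP10 was closest to HIST1H2BD, SERPINB2 and KCTD7 (r = 0.941, 0.936 and 0.922). For MMP2, PLBD2 and ACLY were among the closest (r = 0.990 and 0.989). For MMP14 they were WNT7B, PLEC and TLN1 (r = 0.988, 0.988 and 0.987). For MMP17 TFE3 was first, for MMP3 SNRPA1 and for MMP9 PTPRN2 (r = 0.993, 0.969 and 0.929). With so many candidates and 9 libraries, high values of r are common and nothing about shared control follows from them.

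The promoters of a low-GC and a high-GC member are shown because the genes of the set lower in invasive libraries and those of the set higher there differ in base composition. RefSeq promoter sequences (GRCh38.p14) were at hand for 4 of the 10 genes. The first is the 250 bases before the start of MMP10 (chr11:102780629-102780878, minus strand, 34.4% GC). In capitals are a match to TGANTCA, a loosened AP-1 motif in which N is any base, and a TATA box (TATAAA). The second is the 222 bases before MMP14 (chr14:22836335-22836556, plus strand, 56.3% GC), with a GC box (GGGCGG) in capitals. Both are written 5′ to 3′ on the gene's strand.
MMP10: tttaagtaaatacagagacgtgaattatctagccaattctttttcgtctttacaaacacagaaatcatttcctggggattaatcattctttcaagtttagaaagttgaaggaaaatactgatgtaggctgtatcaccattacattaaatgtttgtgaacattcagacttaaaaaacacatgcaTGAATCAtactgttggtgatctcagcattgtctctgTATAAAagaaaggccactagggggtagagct
MMP14: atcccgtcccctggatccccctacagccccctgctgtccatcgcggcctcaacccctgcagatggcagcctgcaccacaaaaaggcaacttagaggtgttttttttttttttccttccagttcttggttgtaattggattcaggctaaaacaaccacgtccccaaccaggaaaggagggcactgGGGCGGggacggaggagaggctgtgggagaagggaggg
The match to the loosened AP-1 motif in MMP10, TGAATCA, began 67 bases and the TATA box 31 bases before the start. No GC box was in the MMP10 window. The GC box of MMP14 began 38 bases before the gene start in the deposited table. Both strands of the 250 bases before the RefSeq start were searched, and the motifs do not overlap one another in these windows. Of 35116 RefSeq promoters, 6.57% held TGANTCA, 10.7% TATAAA and 42.6% GGGCGG in the same length. For MMP14, 28 of those bases lie inside the gene as the deposited table places it, and they are not printed. In the same window MMP11 had 3 GC boxes and MMP15 had 5, with 73.2% and 74.8% GC, and neither held the other motifs. All 250 bases of the MMP11 window and 188 of the MMP15 window lie inside the gene as the table places it. A match is a string of letters and does not show that a factor binds.

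The genes that restrain, activate and induce MMPs, and the matrix they cut, were counted over the fit of 9 libraries. Limma called 0 of them in each comparison. Of the 5 tested among 7 MMP inhibitors, 3 were higher and 2 lower in invasive than in core libraries (4 at an unadjusted p under 0.05), with a median log2 difference of 0.95 against -0.02 over all genes. At that p were 37.7% of all genes. With the GC trend removed the median was 0.35 and 3 were at that p, against 22.4% of all genes. TIMP1, which inhibits most secreted MMPs, averaged 385 ± 189 FPKM in MK801, 410 ± 208 FPKM in invasive and 198 ± 39.0 FPKM in core libraries (SD, n = 3 each). The ratio of TIMP1 to MMP1 was 1.57 to 8.64 in MK801, 8.60 to 17.9 in invasive and 2.07 to 3.07 in core libraries. The ratio of TIMP2 to MMP14, the pair that brings the proenzyme of MMP2 to the surface, was 0.123 to 0.174, 0.175 to 0.238 and 0.106 to 0.157 in the same order. TIMP3 and TIMP2 were higher in invasive than in core libraries by 1.61 and 1.66 (limma adjusted p = 0.0750 and 0.0794). Between MK801 and invasive libraries they differed by -0.30 and -1.16 (limma adjusted p = 0.925 and 0.370). RECK, a membrane-anchored inhibitor of MMP2, MMP9 and MMP14, averaged 1.08, 1.02 and 1.85 FPKM in MK801, invasive and core libraries. Its log2 difference of invasive against core was -0.50 (limma adjusted p = 0.133). TFPI2, a serine protease inhibitor in the same list, differed by -1.46 between invasive and core and by 1.93 between MK801 and invasive libraries (limma adjusted p = 0.0794 and 0.0811). With the GC trend removed, 1 inhibitor was called, higher in MK801 than in invasive libraries, against 0.363% of all genes called higher. With only those groups fitted as well, 0 inhibitors were called.

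All 8 tested among 11 genes of MMP activation were higher in invasive than in core libraries (4 at an unadjusted p under 0.05, median log2 difference 0.68). At that p were 37.7% of all genes. After removal of the GC trend 7 were higher and the median was 0.55, and 5 were at that p, against 22.4% of all genes. PLAU, the urokinase that makes plasmin, an activator of several proenzymes, averaged 44.5 ± 15.0 FPKM in MK801, 82.8 ± 9.86 FPKM in invasive and 40.2 ± 8.32 FPKM in core libraries (SD, n = 3 each). The MK801 against invasive difference of PLAU was -0.94 (limma adjusted p = 0.379). FURIN, which cuts the propeptides of MMP11 and the membrane-type MMPs, averaged 51.8, 52.8 and 30.6 FPKM in MK801, invasive and core libraries. The AP-1 and ETS families are known to act on the MMP1 promoter. Of 12 such factors, 10 were higher in invasive than in core libraries (median 0.62). Among the 12, 7 were at an unadjusted p under 0.05 in limma, against 37.7% of all genes. With the GC trend removed 9 were higher and the median was 0.30, and 2 were at that p, against 22.4% of all genes. Against invasive libraries, 10 of the 12 were lower in MK801 libraries (median -0.41). Only 1 was at an unadjusted p under 0.05 in limma, against 8.26% of all genes. That factor was FOSL2, which averaged 13.4, 21.3 and 13.3 FPKM in MK801, invasive and core libraries. FOS averaged 604, 919 and 611 FPKM in the same order. Unlike most of the 12, ETS1 and JUND had higher means in MK801 than in invasive libraries. ETS1 averaged 18.2, 14.9 and 25.7 FPKM and JUND 309, 258 and 162 FPKM in MK801, invasive and core libraries. The part of these factors in the MMP1 levels was not tested. The 11 tested among 13 matrix substrates were all higher in invasive than in core libraries (median 1.36). They were all lower in MK801 than in invasive libraries (median -1.36). At an unadjusted p under 0.05 in limma were 8 and 10 of them, against 37.7% and 8.26% of all genes. With the GC trend removed these medians were 0.81 and -1.22. Limma then called 4 substrates lower in MK801 than in invasive libraries, against 0.253% of all genes. With only those groups fitted as well, it called 0 substrates. Several of these substrates are also among the fibroblast and pericyte markers given above.

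Of the 13 remaining human MMP genes in the table, 11 stayed under 1 FPKM in every library. MMP20, MMP21, MMP26 and MMP27 had 0 fragments in all 9 libraries, which allows up to 0.162 FPKM. MMP13, a further collagenase, reached at most 1.43 FPKM, and MMP19 averaged 1.35 ± 0.285, 1.42 ± 0.483 and 1.22 ± 0.261 FPKM in MK801, invasive and core libraries (SD, n = 3 each). MMP1 was therefore the only secreted collagenase above 2 FPKM in these libraries.

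Exons of 5 tested MMP genes overlap those of another annotated gene, and whether counting used strand is not given in the sources used here. WTAPP1, on the opposite strand, covers 7.61% of the MMP1 exon bases and 1.56% of those of MMP3, and its own level was 0 to 1.24 FPKM. CHCHD10 covers 4.21% of MMP11 and was at 3.14 FPKM or more in every library, so MMP11 reads in that stretch cannot be told apart from it. SLC12A5-AS1 covers 18.4% of MMP9 but was at most 0.126 FPKM, and AC007336.3 covers 3.53% of MMP2 and was under 1 FPKM in every library.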

How the data were processed

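Transcripts of 9 libraries (3 MK801, 3 invasive, 3 core) were analysed from 1 table. Its values are FPKM that the authors deposited per gene and library. Per the submitters' processing notes, HISAT2 2.0.5, featureCounts 1.5.0-p3 and GRCh38 were used, and gene coordinates in the table match GENCODE 29. FPKM times gene length gave whole fragments (100% within 0.01), which gave depths of 15.6 to 54.4 M fragments. All columns carried a sample label.

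The test was limma 3.58.1 in R 4.3.3 with trend on log2(FPKM + 1), 1 mean per group over 9 libraries (6 residual degrees of freedom), genes with at least 1 FPKM in at least 3 libraries (11845 genes), Benjamini-Hochberg adjustment and a threshold of 0.05. It was tested on simulated data. Alternatives were pseudocounts of 0.1 and 0.5, no filter, a filter of 5 FPKM, equal FPKM sums, scaling by median ratios (the same factor in all libraries, so without effect), a GC trend per library (loess, span 0.3) removed, only the groups compared, a replicate block, voom with TMM scaling and each library left out. Removing the GC trend with MK801 replicate 1 or 3 left out was chosen after seeing the data. A single exact permutation test of 3 against 3 libraries cannot go below 0.1. Whether replicates were separate cultures is not stated in the labels. The p-values therefore cover only library-to-library spread, part of which may be technical. The MMP genes, the other gene lists and the tests were chosen with earlier results of these data known. All 10 genes were described in every comparison. From each other list examples were taken among the 4 genes with the smallest p in a comparison, and the neighbours were the 3 genes with the highest r, some of which are not reported here.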

Additional observations from a re-analysis of the deposited data

How the results depend on the processing

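For the single MMP genes, 680 differences were recomputed under other settings. Direction and call stayed in 585, a gene became called in 40 and the sign turned in 55. MMP1 kept its direction in every setting run for MK801 against invasive and for invasive against core. Median-of-ratios scaling is not counted here, since its factor was the same in all libraries and it could move no difference. With the filter of 5 FPKM, 1 gene was called for MK801 against invasive, and MMP9 and MMP10 were not tested. With equal FPKM sums, which moved the median of all genes by -0.29 for MK801 against core, MMP1, MMP3, MMP2 and MMP9 turned to -0.19, -0.26, -0.022 and -0.14 there. Voom turned MMP10 to 0.045 in that comparison. With the GC trend removed, 73 genes and 1 MMP gene were called for MK801 against invasive, and 3 genes when only the groups compared were fitted. In all fits of 3 replicates with the GC trend removed, MMP9 and MMP17 turned to -0.025 and -0.048 for invasive against core. In those fits MMP10, MMP2, MMP9 and MMP14 turned to 0.27, -0.044, -0.42 and -0.040 for MK801 against core, and MMP11 and MMP17 to 0.031 and 0.080 for MK801 against invasive. With only the control fractions fitted, 6179 genes and 8 MMP genes were called, and 2279 genes and 2 MMP genes with the GC trend removed as well. No such fit exists for MK801 against the mean of both fractions, which needs all groups.

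A replicate block in the model gave 2525 genes and 7 MMP genes called for invasive against core. With the block and the GC trend removed, 38 genes were called there, and 39 genes and 1 MMP gene for MK801 against invasive. Pairing by number is not stated in the labels, although column names share a stem. Deviations from the group means of same-numbered libraries correlated at -0.007 to 0.445 (invasive and core), 0.0438 to 0.585 (MK801 and core) and -0.15 to 0.608 (MK801 and invasive). In those comparisons 4, 4 and 2 of 6 libraries correlated best with their own number.

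With each library left out, 0 to 4888 genes and 0 to 8 MMP genes were called for invasive against core, 0 to 5941 and 0 to 3 for MK801 against core, 0 to 42 and 0 to 1 for MK801 against invasive, and 0 to 447 genes for MK801 against the mean of both fractions. The ranges that crossed 0 were, for MK801 against core, -0.040 to 0.41 (MMP1), -0.32 to 0.23 (MMP10), -0.17 to 0.36 (MMP3) and -0.039 to 0.32 (MMP9). For MK801 against invasive they were -0.34 to 0.14 (MMP11) and -0.22 to 0.37 (MMP17), and against the mean of both fractions -0.30 to 0.28 (MMP14) and -0.39 to 0.20 (MMP2). Removing the GC trend and MK801 replicate 1 together, chosen after seeing the data, gave 1782 genes and 1 MMP gene for invasive against core, 991 genes and 1 MMP gene for MK801 against invasive and 2 genes against the mean of both fractions. MMP10, MMP2 and MMP9 then differed by 0.12, -0.00042 and -0.38 for MK801 against core, and MMP11 and MMP17 by 0.028 and 0.11 for MK801 against invasive. Without MK801 replicate 3 instead, 644 genes and 1 MMP gene were called for invasive against core. There were 330 genes and 0 MMP genes for MK801 against core, and 5 genes and 0 MMP genes for MK801 against invasive. MMP10 and MMP9 then differed by 0.35 and -0.53 for MK801 against core, and MMP11 and MMP17 by 0.026 and 0.18 for MK801 against invasive. MMP9 and MMP17 stayed at -0.025 and -0.048 for invasive against core in both. The cause of these changes was not tested. Depth limits MMP15, MMP10 and MMP9 most, which rested on 367, 1190 and 1301 fragments over all libraries.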
